A study of Homo sapiens with 11 samples.

Results

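TXNIP, its arrestin-domain relatives ARRDC2, ARRDC3 and ARRDC4, and the thioredoxin system genes TXN, TXN2, TXNRD1, TXNRD2, PRDX1 and PRDX2 were followed in SK-N-BE(2)-C cells, a line derived from neuroblastoma. The members were all probes annotated to these 10 gene symbols. Of the 10 genes, 9 had an annotated probe, with 17 probes of the 48107 on the array, and PRDX2 is not analysed here. A detection filter kept 14 of the 17 probes and all 9 genes, out of 17052 probes and 10323 genes in all. Of the remaining 3, probe ILMN_1710229 of ARRDC2 and ILMN_1669083 of TXNRD2 were detected on 0 arrays, and ILMN_2198516 of ARRDC3 was detected on 1 array.

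Thioredoxins are small proteins that reduce disulphide bonds in other proteins and are recharged by the selenoenzymes thioredoxin reductases at the expense of NADPH. Peroxiredoxins use thioredoxin to remove hydrogen peroxide. TXNIP is an alpha-arrestin that binds reduced thioredoxin and lowers glucose uptake, and its transcription is known to rise when glucose is plentiful. ARRDC2, ARRDC3 and ARRDC4 have the same arrestin fold, and alpha-arrestins link membrane proteins to ubiquitin ligases of the NEDD4 family.

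RNA was hybridised to 11 Illumina HT-12 v4 BeadChip arrays, which report a bead intensity per probe. The 4 groups were cells given the solvent DMSO for 24 h (3 arrays), 500 nM vorinostat for 24 h (3 arrays), DMSO for 6 d (3 arrays) and 500 nM vorinostat for 6 d (2 arrays, numbered 2 and 3). Vorinostat inhibits several classes of histone deacetylases. The study asked how such inhibitors affect autophagy and its control by transcription in neuroblastoma cells, and this line is MYCN-amplified. Its paper describes arrays at 24 h only, read for autophagy genes. All groups were the same cell line, and only the 24 h treatments are described as independent experiments, so that p-values at 6 d measure the spread between arrays, which may be technical.

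Detected probes numbered 15947 to 18696 per array. Mean intensity before normalization was 272 to 302 with DMSO and 401 to 413 with vorinostat at 24 h, and 323 to 383 with DMSO and 283 and 338 with vorinostat at 6 d. The DMSO and the vorinostat arrays of 24 h were on separate BeadChips, so chip and treatment cannot be told apart there. All 6 d arrays were together on another chip, so chip and time cannot be told apart either. All 8 neuroblastoma markers used, MYCN and PHOX2A among them, were detected on all 11 arrays. Of 8 markers of other cells, 5 were detected on 0 arrays, PTPRC on 1 array and EPCAM on 7 arrays by any probe, whereas ALB was detected on all 11 arrays at log2 values of 5.51 to 7.93. EPCAM (probe ILMN_2160210), an epithelial marker, was detected on all 3 DMSO arrays of 6 d and on 2 of the 3 vorinostat arrays of 24 h. It was detected on 0 of the DMSO arrays of 24 h and the vorinostat arrays of 6 d. EPCAM entered the test only through DMSO at 6 d, where it is high, so its values are a description. It was at least 1.69-fold higher at 6 d than at 24 h with DMSO. As fitted, that log2 difference was 0.83 (limma adjusted p = 0.0209), and the change with vorinostat at 6 d was -0.71 (limma adjusted p = 0.13). TXNIP, described below, has its highest values in the same DMSO group of 6 d. The part of these markers in the results was not tested.

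The sequences before the start sites of TXNIP and ARRDC4 are shown because ARRDC4 came nearest to TXNIP in its values among the members (r = 0.65). This ranking took the brightest tested probe of each gene, and many other genes were nearer. Both come from RefSeq (GRCh38.p14) and cover the 250 bases before the start site, on the gene's strand. A promoter entry was found for 8 of the 10 genes, with 14 start sites. Capitals mark matches on either strand to CACGTG (the E-box), GTAAACA (a forkhead motif), CCAAT (the CCAAT box) or TGACNNNGC (the core of the antioxidant response element). No motif matches overlapped in these windows.
TXNIP, chr1:145996580-145996829, minus strand: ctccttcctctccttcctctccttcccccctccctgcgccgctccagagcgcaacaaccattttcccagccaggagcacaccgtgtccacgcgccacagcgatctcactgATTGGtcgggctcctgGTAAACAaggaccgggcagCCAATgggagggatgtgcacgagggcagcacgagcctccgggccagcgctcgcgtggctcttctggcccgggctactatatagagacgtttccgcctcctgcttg
ARRDC4, chr15:97960453-97960702, plus strand: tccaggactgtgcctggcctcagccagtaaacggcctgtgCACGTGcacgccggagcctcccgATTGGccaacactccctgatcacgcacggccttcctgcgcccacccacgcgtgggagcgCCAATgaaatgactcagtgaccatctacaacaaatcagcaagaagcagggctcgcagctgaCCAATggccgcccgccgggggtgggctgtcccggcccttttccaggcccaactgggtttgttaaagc
The TXNIP window held 1 GTAAACA, which began 124 bases before the start, and CCAAT boxes that began at 140 and 105 bases. A further TXNIP start site, not shown, had a window at chr1:145995745-145995994 with 0 matches to any of the 4 motifs. The ARRDC4 window held 1 CACGTG at 210 bases and CCAAT boxes at 187, 128 and 67 bases. Of 35116 promoter windows of the same length, 6.34% held CACGTG, 2.98% GTAAACA, 32% CCAAT and 10.9% TGACNNNGC. Both TXNRD1 start sites had 1 match to TGACNNNGC, at 99 and 102 bases, and 1 of the ARRDC2 start sites had 1, at 68 bases. For GTAAACA, 1 of the ARRDC3 start sites had 1 match, at 29 bases. Windows of ARRDC2, ARRDC3 and TXNRD1 also held CCAAT matches. Such matches describe the letters only, and binding was not measured.

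TXNIP rose in solvent-treated cells between 24 h and 6 d and was far lower with vorinostat at 6 d, while its change with vorinostat at 24 h did not pass the test on quantile-normalized values. On the log2 scale of normalized intensity, TXNIP (probe ILMN_1697448) was 9.24, 9.08 and 9.52 with DMSO at 24 h. With vorinostat at 24 h it was 9.16, 9.20 and 9.45. With DMSO at 6 d it was 11.30, 11.26 and 10.70, and with vorinostat at 6 d it was 9.89 and 9.43. The DMSO arrays of 6 d were thus the highest of all and did not overlap with any other group, and the 24 h groups overlapped. Group means ± SD were 9.28 ± 0.22 (n = 3), 9.27 ± 0.15 (n = 3), 11.09 ± 0.33 (n = 3) and 9.66 ± 0.32 (n = 2), in the same order. A lower signal in such bulk RNA can come from fewer cells with the transcript or from less RNA per cell, which cannot be told apart.

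At 6 d vorinostat lowered TXNIP 2.68-fold, a log2 change of -1.42 (SE 0.18, 95% confidence interval -1.81 to -1.04, limma adjusted p = 0.00034). At 24 h the change was -0.01 on the log2 scale (SE 0.16, limma adjusted p = 0.983), with a 95% confidence interval of -0.35 to 0.34. The difference between the changes was itself tested and was -1.42 (SE 0.25, limma adjusted p = 0.000539). With DMSO, TXNIP was 3.50-fold higher at 6 d than at 24 h, a log2 change of 1.81 (SE 0.16, limma adjusted p = 2.01e-06). With vorinostat the same step was 0.39 (SE 0.18, limma adjusted p = 0.155) and did not pass. In order of level, DMSO at 6 d stood first, followed by vorinostat at 6 d, DMSO at 24 h and vorinostat at 24 h. Within this order the 24 h groups did not differ beyond their spread, and vorinostat at 6 d was not tested against DMSO at 24 h. The comparison at 6 d and that of the DMSO groups share the DMSO 6 d arrays, so they are not independent of each other.

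Before normalization the TXNIP intensities were 495, 549 and 665 with DMSO and 875, 906 and 1021 with vorinostat at 24 h. At 6 d they were 3065, 2636 and 1625 with DMSO and 754 and 764 with vorinostat. The raw 24 h groups did not overlap, whereas the normalized values did, and the vorinostat arrays of 24 h were the brightest of all in mean intensity. With arrays scaled by the medians over all probes, an alternative added after seeing the data, TXNIP at 24 h was 0.72 and was called higher (limma adjusted p = 0.00178), while the median of all genes moved by 0.66. The part of array brightness in the 24 h values was not tested. The 6 d groups were separate on both scales.

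**Figure D1:**
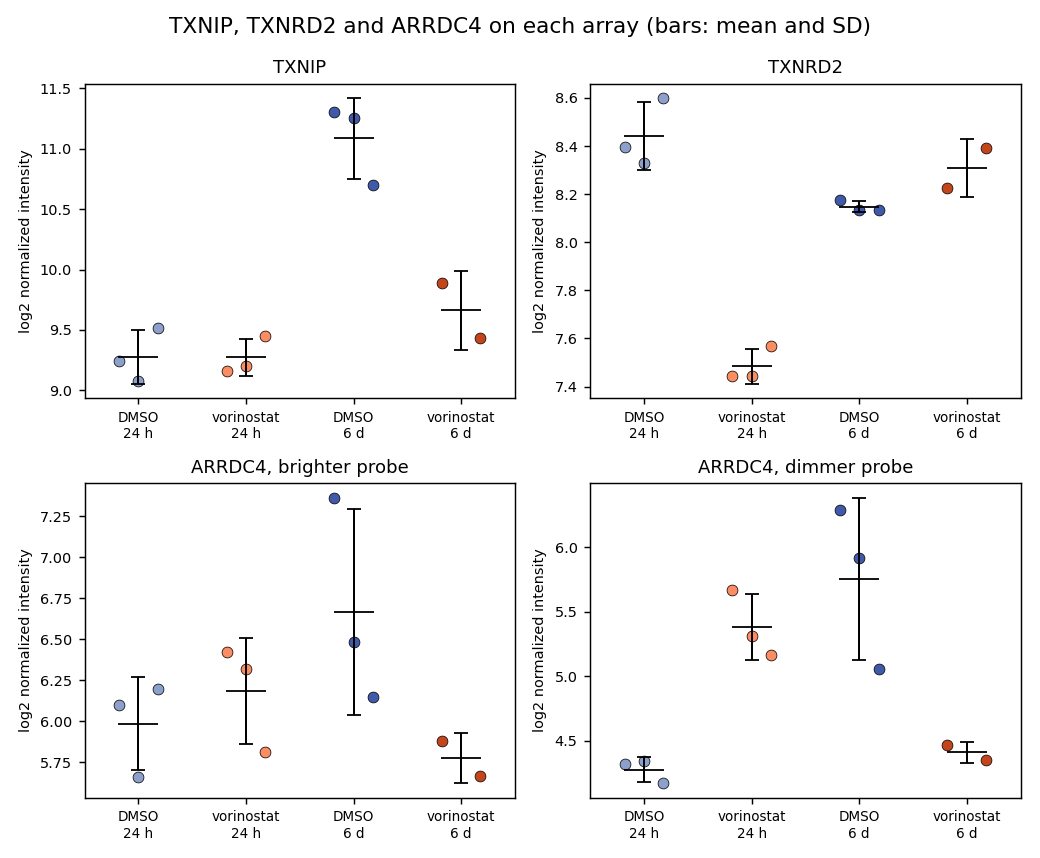
Log2 normalized intensity (vertical axis) of TXNIP, TXNRD2 and both tested ARRDC4 probes in the 4 groups (horizontal axis); each point is 1 array, and bars give the mean and SD. TXNIP stands highest on the 3 DMSO arrays of 6 d (10.70 to 11.30), and TXNRD2 lowest on the 3 vorinostat arrays of 24 h (7.44 to 7.57).

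Of the 9 member genes, each by its brightest tested probe, 0 rose and 1 (TXNRD2) fell with vorinostat at 24 h, against 15.4% higher and 10.2% lower among all 10323 genes. At 6 d 0 rose and 1 (TXNIP) fell, against 3.18% higher and 5.87% lower. For the difference between the times, TXNRD2 was higher and TXNIP lower, against 11.4% and 17.7%. From 24 h to 6 d with DMSO, TXNIP alone of the 9 rose and 0 fell, against 16% and 11.8%. With vorinostat over the same interval TXNRD2 rose and TXNRD1 fell, against 6.88% and 11.7%. With at most 1 of the 9 genes called in a direction, the counts were near these shares. The split over all genes depended on the scaling. With arrays scaled by their medians, 1169 genes were higher and 1825 lower at 24 h in place of 1589 and 1056, and 523 and 495 at 6 d in place of 328 and 606. For the difference the split was 2008 and 1257 in place of 1175 and 1823, for time with DMSO 1189 and 1752 in place of 1653 and 1218, and for time with vorinostat 1200 and 952 in place of 710 and 1211. The calls of TXNIP and TXNRD2 were kept with these medians, which were taken over the tested probes. The median log2 change of the 9 genes was 0.05 at 24 h and -0.14 at 6 d, beside 0.04 and -0.02 over all genes.

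**Figure D2:**
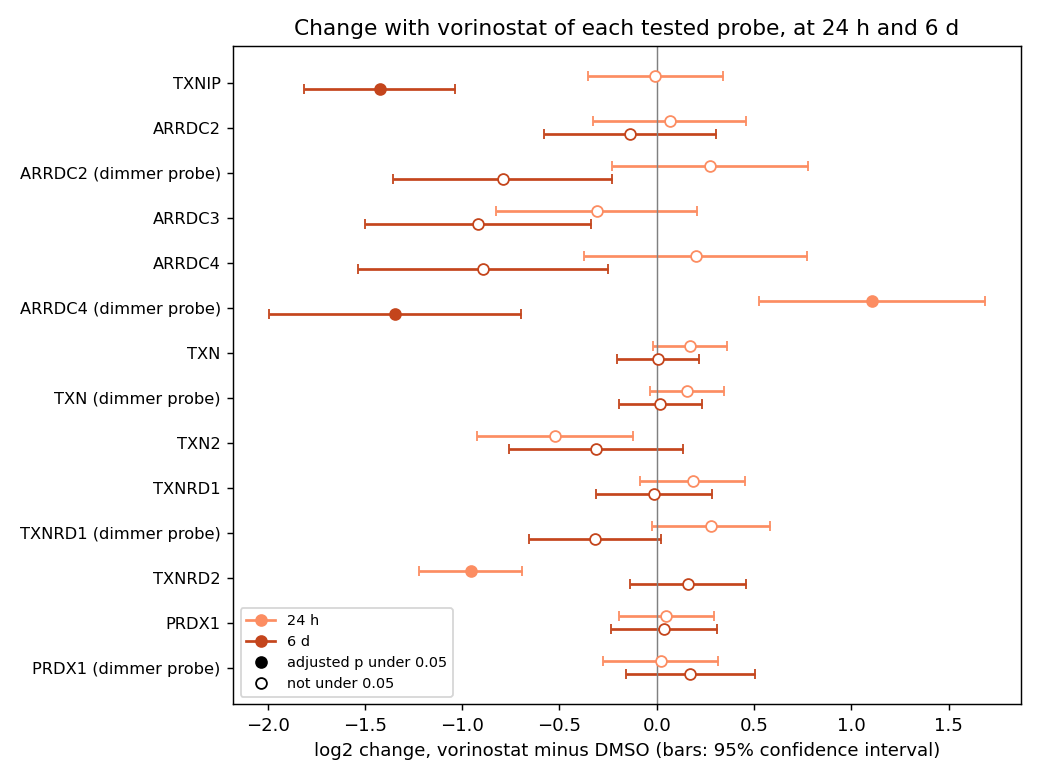
Log2 change with vorinostat against DMSO (horizontal axis) of the 14 tested probes at 24 h and 6 d, with 95% confidence intervals; filled points passed an adjusted p of 0.05. TXNIP passed at 6 d (-1.42), TXNRD2 at 24 h (-0.96), and the dimmer ARRDC4 probe, which entered the test only through groups where it is high, at both times, in opposite directions.

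Among the arrestin relatives, ARRDC4 had probes that differed in what passed the test. ARRDC4 is the closest relative of TXNIP and likewise lowers glucose uptake. The brighter probe, ILMN_1660544, was at 6.10, 5.66 and 6.196 with DMSO and 6.42, 6.32 and 5.81 with vorinostat at 24 h. At 6 d it was at 7.36, 6.49 and 6.15 with DMSO and 5.88 and 5.67 with vorinostat. The 6 d groups did not overlap, but their log2 difference of -0.89 (SE 0.30) had a limma adjusted p of 0.0826. With 1 array left out it ranged from -1.15 to -0.54, and it passed without DMSO array 3 of 6 d (-1.15, adjusted p = 0.0248). The difference at 24 h was 0.20 (SE 0.27, limma adjusted p = 0.64), and the step from 24 h to 6 d with DMSO was 0.68 (SE 0.27, limma adjusted p = 0.0768). That step ranged from 0.33 to 0.94 with 1 array left out, and it passed without the same array (0.94, adjusted p = 0.0214) and with the authors' normalized table (0.44, adjusted p = 0.0369). The difference between the changes at 6 d and 24 h was -1.09 (limma adjusted p = 0.0577) and did not pass.

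The dimmer ARRDC4 probe, ILMN_2184064, was detected on every vorinostat array of 24 h and every DMSO array of 6 d, and on 0 arrays of the other groups. It thus entered the test only through the groups where it is high, and its values are a description. Its log2 values were 4.32, 4.34 and 4.17 with DMSO and 5.67, 5.31 and 5.16 with vorinostat at 24 h. At 6 d they were 6.29, 5.92 and 5.06 with DMSO and 4.47 and 4.35 with vorinostat. For a group not above background a fold is given as a bound. Its arrays were set to the dimmest signal that any detected probe reached there, or to the probe's own signal if higher. By this bound the probe was at least 1.93-fold higher with vorinostat at 24 h and at least 2.46-fold lower with it at 6 d. It was at least 2.49-fold higher at 6 d than at 24 h with DMSO and at least 1.90-fold lower over that step with vorinostat. The bounds were not tested. As fitted, the log2 differences were 1.11 (limma adjusted p = 0.00792), -1.34 (limma adjusted p = 0.0131), 1.48 (limma adjusted p = 0.000994) and -0.97 (limma adjusted p = 0.0378), in that order. Given how the probe entered the test, these p-values are not read as support. Without a detection filter the 6 d comparison (adjusted p = 0.052) and the step with vorinostat (adjusted p = 0.13) no longer passed. The call at 6 d was lost without DMSO array 1 (-1.08, adjusted p = 0.0668) or without either vorinostat array (-1.40 without array 2, adjusted p = 0.0887, and -1.29 without array 3, adjusted p = 0.0736). The call of the step with vorinostat was lost without any 1 of the 5 vorinostat arrays, with log2 values from -0.83 to -1.08. At 24 h the change fell to 0.50 (adjusted p = 0.201) when arrays were scaled by their medians. The 2 ARRDC4 probes had r = 0.80 over the 11 arrays, which share groups and chips.

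ARRDC3, which helps to draw the beta2-adrenergic receptor to ubiquitin ligases, was at 5.77, 5.85 and 5.55 with DMSO and 5.37, 5.47 and 5.40 with vorinostat at 24 h (probe ILMN_2198515). At 6 d it was at 5.98, 5.44 and 6.56 with DMSO and 5.16 and 4.98 with vorinostat, where 1 of 2 arrays detected it. The groups did not overlap at either time. The change at 6 d was -0.92 (SE 0.27) with a limma adjusted p of 0.0501, just outside the threshold, and at 24 h it was -0.31 (SE 0.25, limma adjusted p = 0.39). With 1 array left out the 6 d change ranged from -1.20 to -0.63. It passed without DMSO array 2 of 6 d (-1.20, adjusted p = 0.0122) or without DMSO array 3 of 24 h (-0.92, adjusted p = 0.0481).

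ARRDC2, a less studied alpha-arrestin, showed no change that passed with its brighter probe, ILMN_1715181. Its log2 values ranged from 6.07 to 6.36 with DMSO and from 6.08 to 6.35 with vorinostat at 24 h, and from 5.91 to 6.23 and from 5.79 to 6.08 at 6 d. The change was 0.07 at 24 h (95% confidence interval -0.33 to 0.46) and -0.14 at 6 d (-0.58 to 0.31). The dimmer probe ILMN_1655612 was detected on all 3 DMSO arrays of 6 d and on 0 vorinostat arrays of 6 d, and on 1 array of each 24 h group. It entered the test only through DMSO at 6 d, where it is high, so its values are a description. It was at 5.23, 5.26 and 5.32 with DMSO and 4.19 and 4.77 with vorinostat at 6 d. By the same kind of bound it was at least 1.59-fold lower with vorinostat. As fitted, that log2 change was -0.79 (limma adjusted p = 0.0798), and the bound was not tested. The step from 24 h to 6 d with DMSO was 0.84 (SE 0.24, limma adjusted p = 0.0167). It no longer passed without a detection filter (adjusted p = 0.0858), with array medians (0.38, adjusted p = 0.264), or without DMSO array 1 (0.79, adjusted p = 0.0511) or 2 (0.72, adjusted p = 0.0601) of 24 h. The 2 tested ARRDC2 probes had r = 0.09 over the 11 arrays.

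Neither thioredoxin passed the test with vorinostat at either time. TXN, the cytosolic thioredoxin, was at 12.98, 13.16 and 13.11 with DMSO and 13.30, 13.21 and 13.25 with vorinostat at 24 h (probe ILMN_2038776). At 6 d it was at 13.02, 12.89 and 13.21 with DMSO and 13.01 and 13.08 with vorinostat. The 24 h groups did not overlap, yet their difference of 0.17 (SE 0.09) had a limma adjusted p of 0.182. At 6 d the difference was 0.01, with a 95% confidence interval of -0.20 to 0.22. The dimmer TXN probe, ILMN_1680314, gave 0.16 at 24 h and 0.02 at 6 d, and the probes had r = 0.89 over the 11 arrays.

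TXN2, the mitochondrial thioredoxin, was at 6.200, 6.71 and 6.53 with DMSO and 6.00, 6.00 and 5.87 with vorinostat at 24 h (probe ILMN_1654457). Every vorinostat array was below every DMSO array, and the change of -0.52 (SE 0.19) missed the threshold with a limma adjusted p of 0.0556. With 1 array left out this change ranged from -0.67 to -0.41. Among the 24 h arrays, it passed only without DMSO array 1 (-0.67, adjusted p = 0.0307). At 6 d TXN2 was at 6.06, 6.196 and 6.32 with DMSO and 6.01 and 5.75 with vorinostat, a change of -0.31 (SE 0.21, limma adjusted p = 0.408).

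TXNRD2, the mitochondrial thioredoxin reductase, fell with vorinostat at 24 h on normalized values, while its change at 6 d did not pass. Its brighter probe, ILMN_1657893, was at 8.40, 8.33 and 8.60 with DMSO and at 7.44, 7.44 and 7.57 with vorinostat at 24 h. At 6 d it was at 8.18, 8.13 and 8.14 with DMSO and at 8.23 and 8.39 with vorinostat. The vorinostat arrays of 24 h were the lowest of all 11 and did not overlap with any other group. Before normalization its intensities at 24 h were 312, 361 and 386 with DMSO and 325, 329 and 336 with vorinostat, so that the raw groups overlapped. On the quantile-normalized scale the fall at 24 h was 1.94-fold, a log2 change of -0.96 (SE 0.13, 95% confidence interval -1.22 to -0.69, limma adjusted p = 6.29e-05). At 6 d the change was 0.16 (SE 0.14, 95% confidence interval -0.14 to 0.46, limma adjusted p = 0.534). The difference between the changes was 1.12 (SE 0.19, limma adjusted p = 0.000439), and with vorinostat TXNRD2 was 1.77-fold higher at 6 d than at 24 h (limma adjusted p = 0.000877). With arrays scaled by the medians over all probes, TXNRD2 at 24 h was -0.22 (adjusted p = 0.386) and not called, while the median of all genes moved by 0.66. Array brightness differed between these groups, and its part in the fall was not tested.

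TXNRD1, the cytosolic reductase, has probes that did not move together. The brighter probe, ILMN_1717056, was at 9.13, 9.25 and 8.90 with DMSO and 9.27, 9.35 and 9.22 with vorinostat at 24 h, and at 8.80, 8.64 and 9.02 and at 8.71 and 8.90 at 6 d. Its change with vorinostat was 0.18 at 24 h (limma adjusted p = 0.316) and -0.01 at 6 d (limma adjusted p = 0.971). From 24 h to 6 d with vorinostat it fell by 0.48 on the log2 scale (SE 0.14, limma adjusted p = 0.0287). That call was lost without any 1 of the 5 vorinostat arrays, with log2 values from -0.57 to -0.38.

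The dimmer TXNRD1 probe, ILMN_2324421, was at 8.17, 8.42 and 8.21 with DMSO and 8.41, 8.53 and 8.70 with vorinostat at 24 h, and at 8.86, 8.34 and 8.68 and at 8.26 and 8.36 at 6 d. Its change was 0.28 at 24 h and -0.32 at 6 d, neither of which passed. The difference between these was -0.60 (SE 0.21, limma adjusted p = 0.0498), a value at the threshold that was lost without 9 of the 11 arrays, with log2 values from -0.67 to -0.48. The probes had r = 0.14 over the 11 arrays, so the 2 readings of TXNRD1 disagreed.

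PRDX1, a cytosolic peroxiredoxin, showed no change that passed in any of the comparisons, and its groups overlapped in all of them. The brighter probe, ILMN_2366391, was at 12.34, 12.24 and 12.18 with DMSO and 12.33, 12.41 and 12.16 with vorinostat at 24 h, and at 12.17, 11.85 and 12.28 and at 11.98 and 12.30 at 6 d. Its change was 0.05 at 24 h (95% confidence interval -0.19 to 0.29) and 0.04 at 6 d (-0.23 to 0.31). The dimmer probe, ILMN_2366388, gave 0.02 and 0.17, and the probes had r = 0.82 over the 11 arrays.

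**Figure D3:**
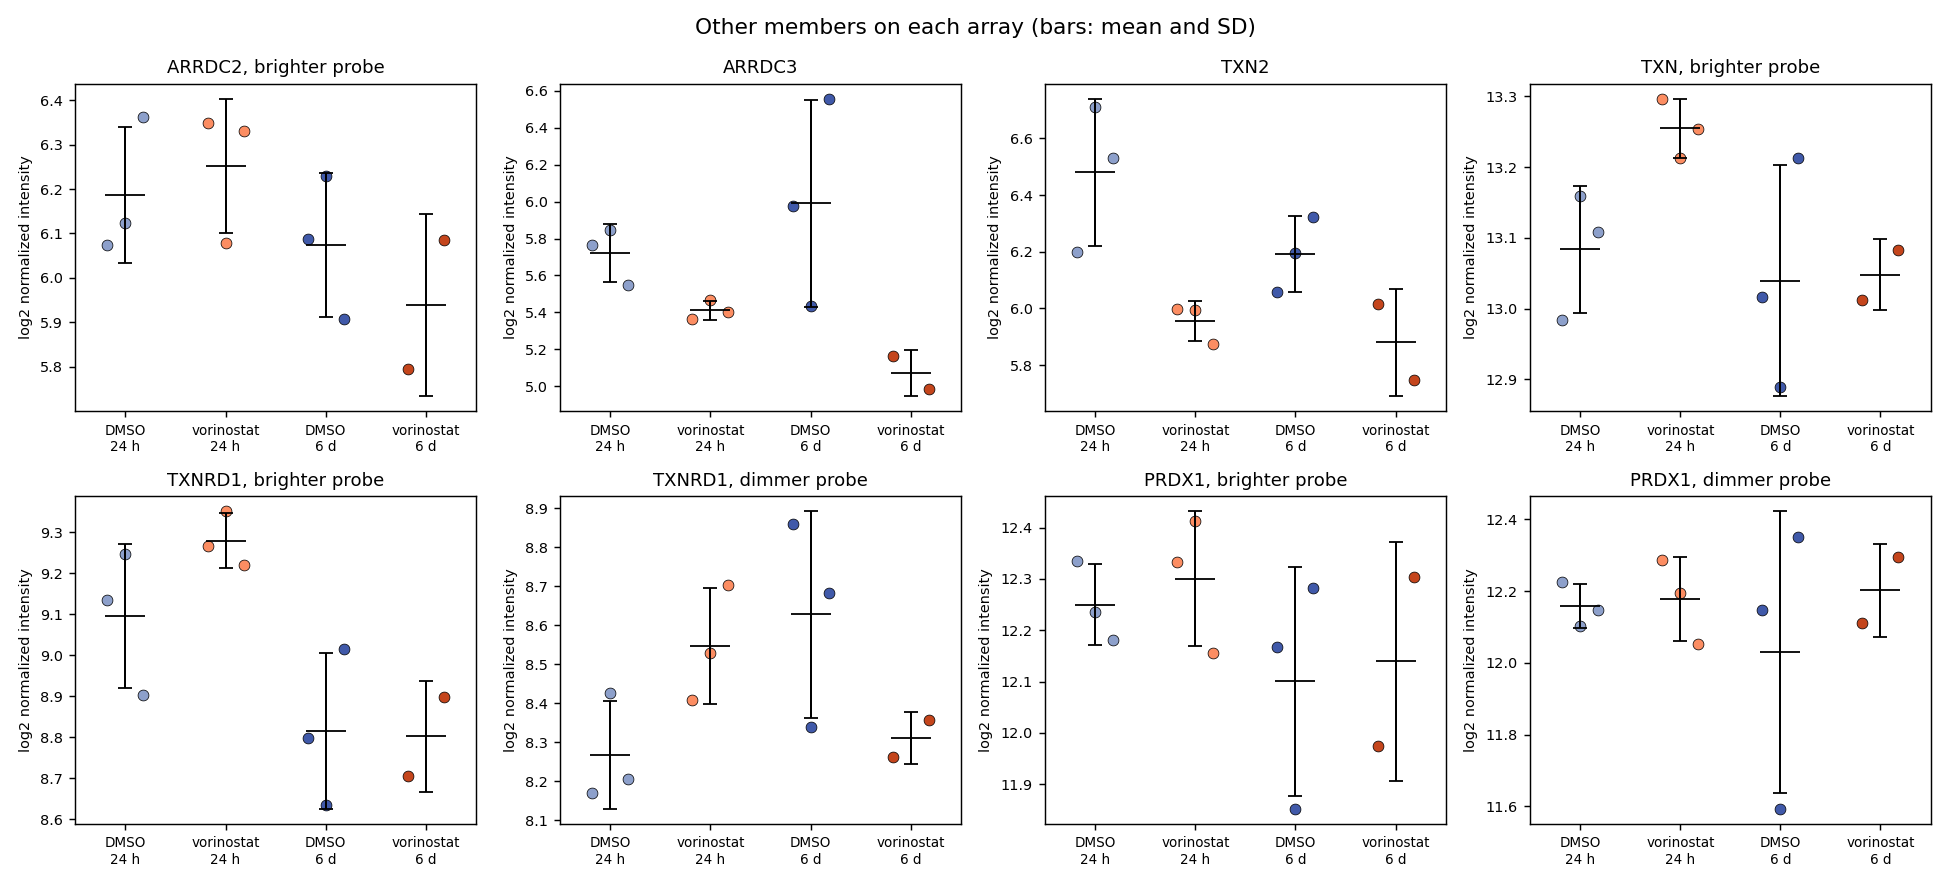
Log2 normalized intensity (vertical axis, scaled per panel) of the other members in the 4 groups; each point is 1 array, and bars give the mean and SD. TXN and PRDX1 spread over less than 1 log2 unit in all, and the panels of TXNRD1 differ in which group is highest.

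The genes whose pattern over the 11 arrays was most like that of TXNIP were, by Pearson's r among 10322 other genes, DDIT4 (r = 0.98), BTBD2 (0.97), NSMF (0.97), DDIT3 (0.96) and TSPO (0.96). DDIT4 is a stress-induced inhibitor of mTORC1 and DDIT3 a transcription factor of the integrated stress response. In all 5 the DMSO group of 6 d had the highest mean. DDIT4 had group means of 8.21 and 7.78 at 24 h and 11.23 and 8.95 at 6 d, DMSO first. DDIT3 had means of 6.47, 6.16, 8.44 and 6.39 in the same order. Within groups, after subtracting group means, r with TXNIP was 0.76 for DDIT4 and 0.69 for DDIT3. Among the members, each by its brightest tested probe, ARRDC4 came nearest to TXNIP (r = 0.65, Spearman's rho 0.46). Over all genes, however, its rank by r was 1025, counting TXNIP itself as 1. Dimmer probes were not ranked. TXNRD1 (-0.73), PRDX1 (-0.60) and TXN (-0.52), by their brighter probes, ran against TXNIP. The dimmer TXNRD1 probe, however, had its highest group mean with DMSO at 6 d (8.63), as TXNIP did. These values describe 11 arrays that share groups, chips and brightness.

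**Figure D4:**
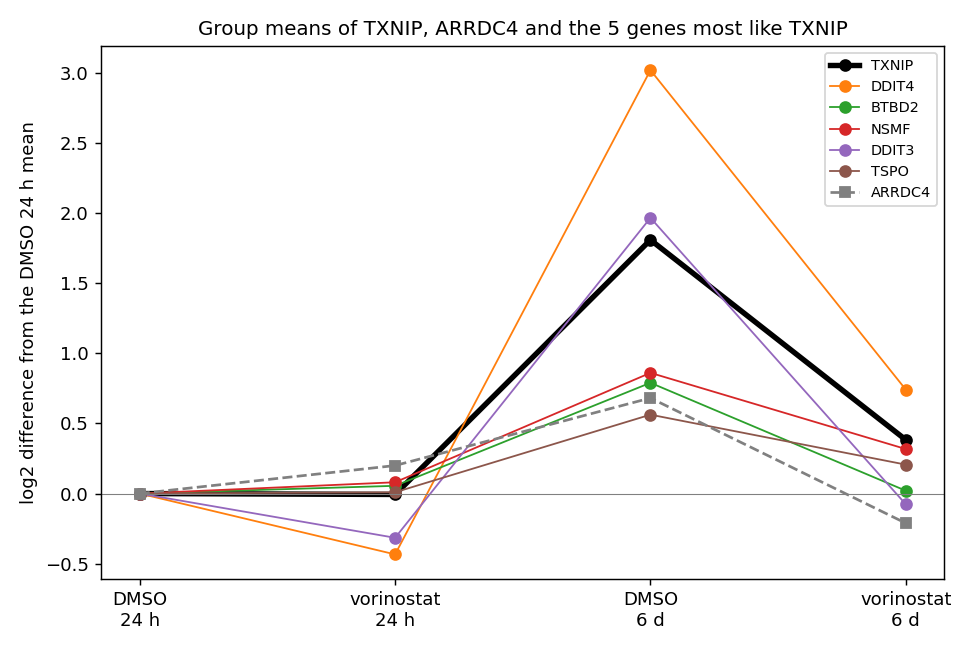
Group means of TXNIP, ARRDC4 (brighter probe) and the 5 genes most like TXNIP, as log2 difference from the DMSO 24 h mean (vertical axis), over the 4 groups (horizontal axis). All 7 lines peak at DMSO 6 d, with TXNIP 1.81 and DDIT4 3.02 above their 24 h level.

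Other genes of the pathway were read from lists of known members. Their counts stand beside the shares over all genes given above, 15.4% higher and 10.2% lower at 24 h, 3.18% and 5.87% at 6 d, and 16% and 11.8% from 24 h to 6 d with DMSO. Most lists held few genes, and nothing is read from these counts as particular to a list. Calls of the listed genes are on quantile-normalized values, and these genes were not recomputed with another scaling. Scaling by the medians over all probes moved the median of all genes by 0.66 at 24 h. Of 8 tested thioredoxin users and partners of TXNIP, 1 rose (SLC2A3, a neuronal glucose transporter, 1.56, limma adjusted p = 4.11e-05) and 1 fell (SLC2A1, the widespread glucose transporter that TXNIP binds, -0.66, limma adjusted p = 0.017) with vorinostat at 24 h. At 6 d SLC2A1 rose by 0.87 (limma adjusted p = 0.0165) and DDIT4 fell by 2.28 (limma adjusted p = 0.000278). On quantile-normalized values SLC2A1 was thus lower at 24 h and higher at 6 d. The difference between its changes was 1.53 (limma adjusted p = 0.000839), and the part of array brightness in it was not tested. With DMSO from 24 h to 6 d, SLC2A1 fell by 1.46 (limma adjusted p = 4.43e-05), while DDIT4 rose by 3.02 and SLC2A3 by 1.42. TXNIP and SLC2A1 thus moved in opposite directions in the solvent cultures.

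Of 20 tested thioredoxin, peroxiredoxin and glutaredoxin genes outside the member list, 2 rose and 1 fell at 24 h, with MSRB2, a mitochondrial methionine sulphoxide reductase, at 0.72 and TXNL4B at -0.92. At 6 d 2 rose and 1 fell, with GLRX2, a mitochondrial glutaredoxin, at 0.76 and MSRB2 at -0.58. From 24 h to 6 d with DMSO 2 rose and 5 fell, against 16% and 11.8% of all genes. The median change of the list was 0.04 at 24 h and 0.15 at 6 d, beside 0.04 and -0.02 over all genes.

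Of 18 tested genes of the NRF2 response and of glutathione metabolism, 1 rose and 4 fell at 24 h, against 15.4% and 10.2% of all genes. HMOX1, which breaks down haem, was the 1 that rose. It was at least 1.75-fold higher with vorinostat at 24 h and at least 1.97-fold lower at 6 d. Bounds are given since the lower group was not above background on any array. HMOX1 entered the test only through vorinostat at 24 h and DMSO at 6 d, where it is high. Its values are thus a description. GPX1, the selenoenzyme glutathione peroxidase, fell by 0.79 (limma adjusted p = 0.000733) and KEAP1, the inhibitor of NRF2, by 0.68 (limma adjusted p = 0.00898) at 24 h. At 6 d 0 rose and 2 fell, HMOX1 and TKT.

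Of 7 tested regulators of TXNIP and its relatives, 1 rose with vorinostat at 24 h and 0 fell. That was NEDD4L, a ubiquitin ligase of the NEDD4 family, at 1.30 (limma adjusted p = 0.0019). It was detected on 1 of the 3 DMSO arrays and all 3 vorinostat arrays of 24 h. NEDD4L entered the test only through vorinostat at 24 h and DMSO at 6 d, where it is high. Its values are thus a description. At 6 d 0 of the 7 passed in either direction by limma, and 0 had an unadjusted p under 0.05. FOXO3, a forkhead factor, was 0.61 higher at 6 d than at 24 h with DMSO (limma adjusted p = 0.0296). Of 4 other arrestins 1 was tested, ARRB1, which did not pass with vorinostat at either time and was 0.64 higher at 6 d than at 24 h with DMSO (limma adjusted p = 0.000667).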

How the data were processed

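The data were from 11 Illumina HT-12 v4 arrays. The authors deposited linear, non-normalized intensities, each beside a detection p-value, and a second table of intensities that the authors normalized in BeadStudio, by a method not given in the sources used here. Groups and numbers came from the sample titles. For DMSO 6 d array 3 and vorinostat 6 d array 2 the description gives number 1 instead. The tables carry different probe identifiers, so all 48107 probes were paired by their values (2.66% mutual after shuffling).

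The detection p-value was small on both sides of background. A probe counted as detected with p under 0.01 and an intensity above the median of probes with p above 0.9. Intensities were background corrected by normexp with an offset of 16 (limma 3.58.1, R 4.3.3), quantile normalized and taken as log2. The correction takes the p-value to fall with intensity, so another background was tried. Probes that all arrays of some group detected (17052) entered 1 limma fit (lmFit, eBayes with trend) of 4 groups, and p-values were adjusted by Benjamini-Hochberg over all probes with a threshold of 0.05. The brightest tested probe stood for a gene in counts. Named genes were all member probes, called genes of the lists and the 5 most like TXNIP. Members and lists were chosen with earlier results of these data known. Steps were tested on simulated data, and figures used Matplotlib 3.10.9. The number of arrays limits the precision.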

Additional observations from a re-analysis of the deposited data

Results flagged for a closer look

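The change with vorinostat differed between 6 d and 24 h, by limma's test of the difference itself, for 5 member probes. TXNIP differed by -1.42 on the log2 scale (adjusted p = 0.000539) and TXNRD2 by 1.12 (adjusted p = 0.000439). The dimmer probe of ARRDC4, ILMN_2184064, differed by -2.45 (adjusted p = 0.000424), a value that rests in part on groups not above background, and the probe entered the test only through the groups where it is high. The dimmer probe of ARRDC2, ILMN_1655612, differed by -1.06 (adjusted p = 0.0369). It entered the test only through DMSO at 6 d, where it is high, and was not above background with vorinostat at 6 d. It no longer passed without a detection filter (adjusted p = 0.157) or with the authors' normalized table (-0.32, adjusted p = 0.066). The dimmer TXNRD1 probe, ILMN_2324421, differed by -0.60 (adjusted p = 0.0498). For ARRDC4, ARRDC2 and TXNRD1 the brighter probe did not pass (-1.09, -0.20 and -0.20), and that of ARRDC4 (adjusted p = 0.0577) passed in 4 of 22 alternatives. The ARRDC2 difference was lost without any 1 of 8 arrays, with values from -1.08 to -0.77, and that of TXNRD1 without any 1 of 9. Time and BeadChip cannot be told apart in these differences.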

How the results depend on the processing

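The 75 results, all of member probes or counts of member genes, were recomputed under 23 alternatives, 11 of which left out 1 array each. TXNIP passed at 6 d (-1.65 to -1.20 over 23 alternatives, highest adjusted p 0.0083), in the difference (-1.65 to -1.19 over 22) and over time with DMSO (1.63 to 2.00 over 22) in each of these alternatives. TXNRD2 likewise passed at 24 h (-1.01 to -0.71), in the difference (0.83 to 1.20) and over time with vorinostat (0.60 to 0.91), but not with the scaling added later, given last. With only the 6 d arrays fitted, 102 genes were higher and 339 lower with vorinostat at 6 d, in place of 328 and 606. TXNIP was among those 339. Of 58 sign changes, 1 concerned a value that had passed, the dimmer ARRDC2 probe. The cause of the changes below was not tested.

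With array medians in place of quantiles, the sign turned at 24 h for ARRDC2 (-0.012, dimmer probe -0.47), TXN (-0.075, dimmer probe -0.036) and PRDX1 (-0.13, dimmer probe -0.15), and at 6 d for TXNRD1 (0.015). It turned for the difference of the dimmer ARRDC2 probe (0.0086), TXN (0.25, dimmer probe 0.22) and PRDX1 (0.33). Over time with vorinostat it turned for the dimmer ARRDC2 probe (0.39), ARRDC3 (0.061), TXN (0.068, dimmer probe 0.074), TXN2 (0.0197) and PRDX1 (0.0195). With the authors' normalized table it turned for the difference of TXN2 (-0.024) and PRDX1 (0.027) and for ARRDC2 over time with DMSO (0.022). With array weights it turned for the dimmer TXN probe over time with DMSO (0.0062) and the dimmer PRDX1 probe over time with vorinostat (-0.0048).

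Leaving out 1 array turned signs within these ranges. At 24 h they were -0.11 to 0.11 for TXNIP, -0.0059 to 0.12 for PRDX1 and -0.035 to 0.082 for its dimmer probe. At 6 d they were -0.28 to 0.0099 for ARRDC2, -0.067 to 0.095 for TXN, -0.079 to 0.12 for its dimmer probe, -0.11 to 0.086 for TXNRD1, -0.13 to 0.20 for PRDX1 and -0.047 to 0.33 for its dimmer probe. For the difference they were -0.18 to 0.15 for PRDX1 and -0.066 to 0.31 for its dimmer probe. Over time with DMSO they were -0.014 to 0.55 for ARRDC3, -0.13 to 0.031 for TXN, -0.073 to 0.042 for its dimmer probe and -0.29 to 0.091 for the dimmer PRDX1 probe. Over time with vorinostat they were -0.51 to 0.068 for the dimmer ARRDC2 probe, -0.21 to 0.058 for TXN2, -0.33 to 0.0042 for PRDX1 and -0.066 to 0.12 for its dimmer probe.

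Called member genes numbered 2 in place of 1 at 24 h with array medians, no background correction, an offset of 50, probes detected on all arrays, 1 probe per gene, eBayes without trend or array weights (TXN2 passed too), and 1 to 2 with 1 array left out. At 6 d they numbered 2 in place of 1 with background from probes near its centre, 1 probe per gene or array weights (ARRDC3 passed too), and 1 to 2 with 1 array left out. Over time with DMSO they numbered 2 in place of 1 with the authors' table, and 1 to 3 with 1 array left out. Over time with vorinostat they numbered 1 in place of 2 without a detection filter or without trend, and 1 to 2 with 1 array left out.

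For same-numbered arrays, r across probes of the deviations from group means was 0.080, 0.165 and 0.238 at 24 h, and 0.088 and 0.091 at 6 d. The deviations of the 2 vorinostat arrays of 6 d mirror each other. The same DMSO arrays therefore had r of -0.088 and -0.091 with the other number, and the strength of pairing cannot be read at 6 d. The numbers were not taken as pairs in the main fit. However, each 24 h array correlated best with its own number, and the paper describes 3 independent experiments with vorinostat and solvent at 24 h. With a replicate block the SE of TXNIP was 0.08 at 24 h and 0.10 at 6 d, in place of 0.16 and 0.18. DMSO array 1 of 6 d has no partner, so it does not enter the change at 6 d under the block. With a replicate block TXNIP was -1.32 at 6 d (adjusted p = 0.000496) and TXNRD2 -0.96 at 24 h (adjusted p = 0.000115). The block turned the sign of TXN at 6 d (-0.0034) and of PRDX1 in the difference (0.022), and the dimmer ARRDC4 probe at 6 d (-1.08, adjusted p = 0.0521) and the differences of the dimmer ARRDC2 and TXNRD1 probes no longer passed. It changed no other member call in the 3 comparisons it could be fitted to.

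Scaling by the medians over all probes was added after seeing the data. It moved the median of all genes by 0.66 at 24 h and -0.31 at 6 d, and 6798 genes were higher and 57 lower at 24 h, and 47 and 1317 at 6 d. TXNIP was then called higher at 24 h (0.72, adjusted p = 0.00178), and TXNRD2 was not called at 24 h (-0.22, adjusted p = 0.386), in the difference (adjusted p = 0.938) or over time with vorinostat (adjusted p = 0.478). Relative to the median of all genes TXNIP changed by 0.07 and -1.39 and TXNRD2 by -0.88 and 0.12. Signal over background limits the dimmer ARRDC2 and ARRDC4 probes and ARRDC3, which some or all arrays of a group did not detect, and 2 vorinostat arrays at 6 d limit every comparison with them.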
